A study of Mus musculus with 24 samples.

Results

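The subcortical maternal complex is a large protein assembly beneath the surface of the mammalian egg and early embryo. It was followed here as transcripts of 7 genes, of the 55471 genes counted, taken from a fixed list of names: Nlrp5, Ooep, Tle6 and Khdc3, which encode its core, and Padi6, Zbed3 and Nlrp2, which encode proteins found with it. The genes were chosen by name and not by a measured value, though earlier results of these data were known at that time. All 7 were identified in the mouse count tables by gene symbol.

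The 24 libraries came from mouse embryos in 6 groups of 4, with 10 embryos pooled in each library. The groups were Ttf1 KO morulae, Zfp622 KO morulae, WT morulae, Ttf1 KO late 2-cell embryos, Zfp622 KO late 2-cell embryos and WT late 2-cell embryos. The control libraries are titled NC, a label that was read here as wild type (WT). Knockout (KO) here means that Cas9 protein at 100 ng/µL and 3 guide RNAs against the gene at 50 ng/µL each were injected into the cytoplasm of the zygote, so each library is a pool of separately edited embryos and not a bred line. Zygotes for the knockouts came from superovulated B6D2F1 females of 3 to 4 weeks mated to males of the same strain, and the injected embryos grew in KSOM medium. The labels give neither dam age, culture nor injection for the WT embryos, and not what share of alleles was edited. The study set each knockout against WT at each stage. Ttf1 encodes a terminator of ribosomal RNA gene transcription and Zfp622 a zinc finger protein that acts on the large ribosomal subunit. Total counts ran between 10538723 and 17807596 per library. The Ttf1 transcript averaged 25.4 ± 1.46 CPM (a gene's reads scaled to a common library size) in Ttf1 KO morulae and 43.1 ± 1.5 in WT morulae, and 33.2 ± 4.67 in Ttf1 KO and 90.6 ± 5.25 in WT late 2-cell embryos (SD, n = 4 each). The Zfp622 transcript averaged 15.1 ± 6.16 CPM in Zfp622 KO morulae and 52.1 ± 4.84 in WT morulae, and 73.9 ± 22.8 in Zfp622 KO and 197.8 ± 9.46 in WT late 2-cell embryos. Stage markers went with the labels: summed morula marker levels ran between 1128 and 1221 CPM in WT morulae and between 116 and 121 CPM in WT late 2-cell embryos, scaled within each stage. All Ttf1 KO libraries bear lane number 1, and all Zfp622 KO and WT libraries lane number 2, in the alignment names of the file headers. Lane and Ttf1 knockout thus cannot be told apart. Some names also hold an extra number before the lane number, called here a second index number. It marks replicates 3 and 4 of the WT morulae and replicate 4 of the WT late 2-cell embryos. What this number stands for is not stated.

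As background, the complex is made in the growing oocyte, and its proteins outlast much of their mRNA in the cleaving embryo. NLRP5 (also called MATER) binds OOEP (FLOPED) and TLE6 to form the core, and KHDC3 (FILIA) joins it through NLRP5. Loss of Nlrp5, Ooep or Tle6 in the mother stops mouse embryos early in cleavage, while loss of Khdc3 delays them and gives aneuploid cells. PADI6 is a peptidylarginine deiminase family protein needed for the cytoplasmic lattices of the oocyte, fibres that also hold the core proteins. ZBED3 is a zinc finger protein that acts with the complex in the positioning of the division spindle, and NLRP2 is a relative of NLRP5.

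In the GRCm38 coordinates of the count tables, Nlrp5 (ENSMUSG00000015721) lies at chr7:23385889-23441922 on the plus strand and Nlrp2 (ENSMUSG00000035177) at chr7:5298547-5351035 on the minus strand. Ooep (ENSMUSG00000032346) lies at chr9:78376109-78378725 on the minus strand and Khdc3 (ENSMUSG00000092622) at chr9:73101836-73104438 on the plus strand. Tle6 (ENSMUSG00000034758) lies at chr10:81590904-81601073 on the minus strand, Padi6 (ENSMUSG00000040935) at chr4:140727355-140742643 on the minus strand, and Zbed3 (ENSMUSG00000041995) at chr13:95323612-95337841 on the plus strand. Each value below is a sum over the exons of the gene. Nlrp2 shares exon bases with Gm18757 on the opposite strand, and its span holds Gm5065, also on the opposite strand, with 0 shared exon bases; the counting named no strand option, so reads over shared bases cannot be told apart by strand. Khdc3 shares 790 of its 2050 exon bases with Gm20509 on the same strand. By default featureCounts gives a read that meets exons of 2 genes to neither, and the headers name no option that changes this, so the Khdc3 level per length may be too low; Gm20509 itself had at most 1 read in any library. On the same strand, outside the members' exons, lie Snora47, a small nucleolar RNA gene, and Gm22661 in Zbed3, and Gm25196 in Nlrp5, each with 0 shared exon bases.

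The promoters of the 4 genes that differed between knockout and WT morulae are shown first, because the results turn on these genes. Each window runs over 300 bases, from 250 bases before to 50 after the gene's start in RefSeq on GRCm38.p6, and is written 5′ to 3′ on the gene's strand. Capitals mark every CANNTG, the E-box that basic helix-loop-helix factors bind, among them FIGLA of the oocyte. The windows are chr13:95323355-95323654 (plus) for Zbed3, chr7:23385639-23385938 (plus) for Nlrp5, chr9:78378539-78378838 (minus) for Ooep and chr9:73102148-73102447 (plus) for Khdc3. The RefSeq start of Ooep lies 137 bases, and that of Khdc3 562 bases, from the gene start in the count tables.
Zbed3: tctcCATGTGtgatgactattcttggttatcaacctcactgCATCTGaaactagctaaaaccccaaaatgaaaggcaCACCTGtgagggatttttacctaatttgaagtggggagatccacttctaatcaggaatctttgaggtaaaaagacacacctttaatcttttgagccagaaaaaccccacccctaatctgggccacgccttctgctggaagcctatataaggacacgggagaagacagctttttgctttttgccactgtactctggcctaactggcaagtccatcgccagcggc
Nlrp5: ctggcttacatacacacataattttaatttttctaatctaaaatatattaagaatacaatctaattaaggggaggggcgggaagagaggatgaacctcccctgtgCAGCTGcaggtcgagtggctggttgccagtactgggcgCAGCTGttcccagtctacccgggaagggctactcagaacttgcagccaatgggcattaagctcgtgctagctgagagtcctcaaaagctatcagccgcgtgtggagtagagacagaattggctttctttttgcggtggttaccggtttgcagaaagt
Ooep: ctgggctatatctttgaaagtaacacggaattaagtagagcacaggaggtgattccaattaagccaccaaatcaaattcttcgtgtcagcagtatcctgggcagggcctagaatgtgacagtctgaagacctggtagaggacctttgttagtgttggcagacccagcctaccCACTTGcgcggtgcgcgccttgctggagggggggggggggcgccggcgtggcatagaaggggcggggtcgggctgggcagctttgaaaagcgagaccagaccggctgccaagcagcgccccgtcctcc
Khdc3: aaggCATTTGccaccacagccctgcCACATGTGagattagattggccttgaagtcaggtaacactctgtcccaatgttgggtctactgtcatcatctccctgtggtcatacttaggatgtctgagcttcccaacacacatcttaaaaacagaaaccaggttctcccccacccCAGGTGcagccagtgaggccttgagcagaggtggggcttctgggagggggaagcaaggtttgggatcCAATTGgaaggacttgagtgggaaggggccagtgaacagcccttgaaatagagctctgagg
Zbed3 has 3 E-boxes in this window, Nlrp5 2, Ooep 1 and Khdc3 5, of which 2 overlap in CACATGTG. CANNTG reads the same on both strands. It stood in 6 of the 7 members' windows, all but that of Nlrp2, and in 72.3% of the 32851 RefSeq promoter windows. TAATTA or TAATTG, searched on both strands as motifs of the kind that the oocyte homeobox factor NOBOX binds, stood once each in the windows of Nlrp5, Ooep and Padi6, against 12.4% of all windows. TATAAA, also searched on both strands, was in 0 of the 7 windows, against 13.6% of all windows. These matches describe letters only.

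The make-up of the complex's transcripts turned over between the stages. Levels of different genes are given as FPKM, which is CPM per 1000 bases of exon, scaled across all 24 libraries. In WT morulae Khdc3 led, at 196.9, 204.7, 218.0 and 217.9 FPKM, and in WT late 2-cell embryos it was the lowest member, at 0.594, 0.962, 0.946 and 0.709 FPKM. Zbed3 had 0.263, 0.148, 0.446 and 0.342 FPKM in WT morulae, against 250.5, 230.4, 257.9 and 265.3 FPKM in WT late 2-cell embryos, where it led. The 2 genes thus changed places: Khdc3 was 261-fold higher and Zbed3 837-fold lower in WT morulae than in WT late 2-cell embryos. In counts, Zbed3 had 7, 4, 14 and 10 reads in the WT morula libraries and 7803, 6517, 7713 and 8965 in the WT late 2-cell libraries.

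**Figure D1:**
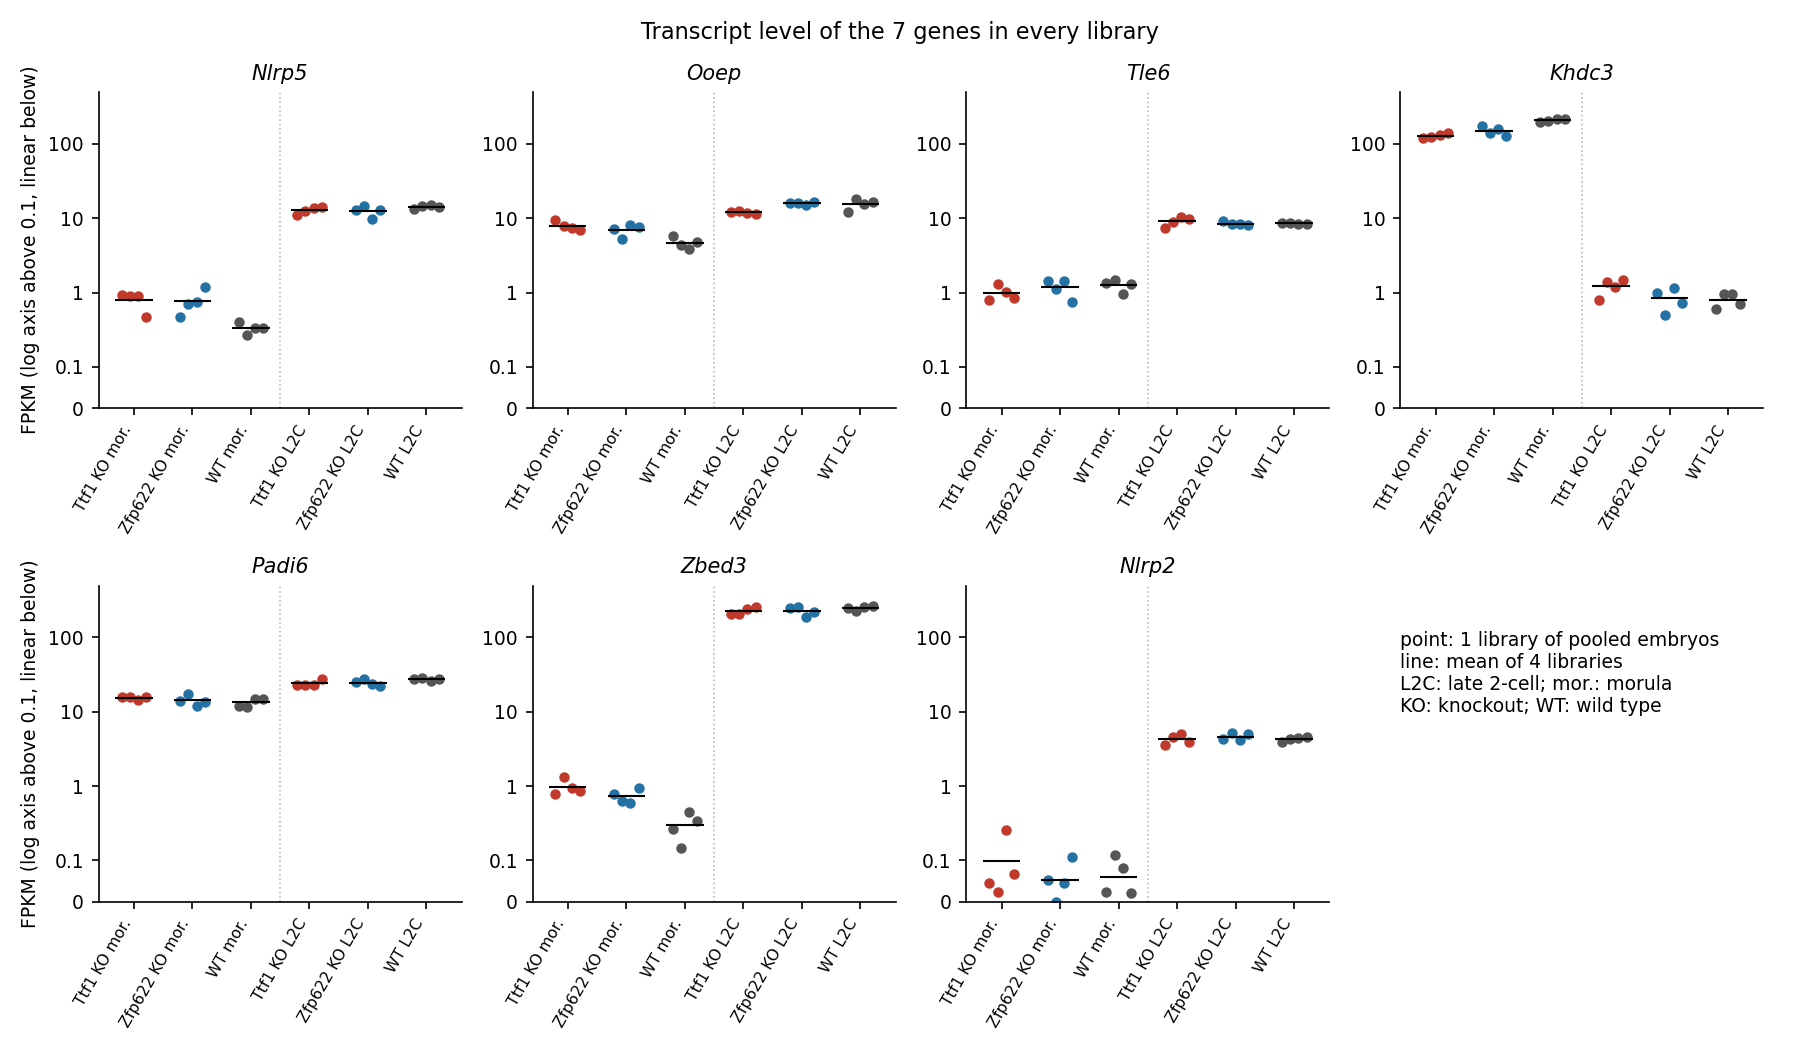
FPKM of each of the 7 genes in all 24 libraries (points; lines are means of 4), on a vertical axis that is logarithmic above 0.1 and linear below, for Ttf1 KO, Zfp622 KO and WT morulae and then the same genotypes at the late 2-cell stage. Khdc3 is above 100 FPKM in morulae and near 1 FPKM in late 2-cell embryos, while Zbed3 has the opposite order.

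The other core genes were lower in WT morulae. Nlrp5, the NOD-like receptor family protein at the centre of the core, had 0.397, 0.273, 0.337 and 0.331 FPKM in WT morulae, against 13.5, 14.7, 15.1 and 14.0 FPKM in WT late 2-cell embryos. Tle6, a relative of the Groucho corepressors, had 1.33, 1.47, 0.967 and 1.31 FPKM in WT morulae, against 8.77, 8.58, 8.38 and 8.45 FPKM in WT late 2-cell embryos. Ooep, a small KH domain protein, kept more of its level, with 5.79, 4.33, 3.92 and 4.79 FPKM in WT morulae, against 12.3, 18.3, 15.5 and 16.6 FPKM in WT late 2-cell embryos. In all 3 genes every WT morula library lay below every WT late 2-cell library. Of the associated genes, Padi6 had 12, 11.4, 15.1 and 14.9 FPKM in WT morulae, against 27.7, 28.4, 26.0 and 27.4 FPKM in WT late 2-cell embryos. Nlrp2 fell close to the limit of counting, with 1, 5, 4 and 1 reads in the WT morula libraries, or 0.0239, 0.118, 0.0810 and 0.0218 FPKM, against 3.98, 4.34, 4.44 and 4.65 FPKM in WT late 2-cell embryos. The morula mean was 48.8% of the late 2-cell mean for Padi6, 30.1% for Ooep, 14.9% for Tle6, 2.33% for Nlrp5, 1.40% for Nlrp2 and 0.119% for Zbed3.

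All 7 genes changed between WT morulae and WT late 2-cell embryos in edgeR's quasi-likelihood test, and 84% of all genes tested did so too (37.9% higher and 46.1% lower in morulae), so the count of members stands near the background. The log2 fold changes, morula over late 2-cell, were 8.03 ± 0.18 (SE) for Khdc3, -9.66 ± 0.18 for Zbed3, -6.09 ± 0.38 for Nlrp2, -5.41 ± 0.21 for Nlrp5, -2.75 ± 0.18 for Tle6, -1.73 ± 0.15 for Ooep and -1.03 ± 0.11 for Padi6. Adjusted p ran between 7.14e-27 for Zbed3 and 9.58e-10 for Padi6. The median over all genes was -0.30 with TMM scaling and -0.87 with scaling by total counts, a shift of -0.57. With total counts Khdc3 was still higher, at 7.45, and Padi6, the member with the smallest change, still lower, at -1.61. Libraries were scaled to each other and not to embryos or cells, so a fold change between stages is relative to the rest of the RNA. The cDNA was primed by oligo-dT, which binds poly(A) tails, and tail length was not measured. In pooled embryos, fewer cells that hold a transcript and less of it per cell cannot be told apart.

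The order of the genes in WT late 2-cell embryos was Zbed3, Padi6, Ooep, Nlrp5, Tle6, Nlrp2 and Khdc3 by mean FPKM. Ooep and Nlrp5, at 15.7 ± 2.53 and 14.3 ± 0.707 FPKM, overlapped, and no other neighbours in that order did. In WT morulae the order was Khdc3, Padi6, Ooep, Tle6, Nlrp5, Zbed3 and Nlrp2. There Nlrp5 and Zbed3, at 0.335 ± 0.0508 and 0.2998 ± 0.126 FPKM, overlapped, and the other neighbours did not.

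Over the 7 genes together, the summed level was 155 ± 7.61 FPKM in Ttf1 KO, 174 ± 21 in Zfp622 KO and 229 ± 11.6 in WT morulae, and 292 ± 28.4, 297 ± 35.7 and 322 ± 13.6 FPKM in Ttf1 KO, Zfp622 KO and WT late 2-cell embryos (SD, n = 4 each). Khdc3 made up 83.1 ± 1.72% of that sum in Ttf1 KO morulae, 86.0 ± 1.93% in Zfp622 KO morulae and 91.3 ± 0.525% in WT morulae. Every knockout morula library lay below every WT morula library in this share. Padi6 took 9.95%, 8.30% and 5.80% of the sum in Ttf1 KO, Zfp622 KO and WT morulae, and Ooep 5.14%, 4.08% and 2.07%. In late 2-cell embryos Zbed3 made up 78.1 ± 0.930%, 77.3 ± 1.45% and 77.9 ± 1.69% of the sum in Ttf1 KO, Zfp622 KO and WT embryos. These shares are descriptions with no test.

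**Figure D2:**
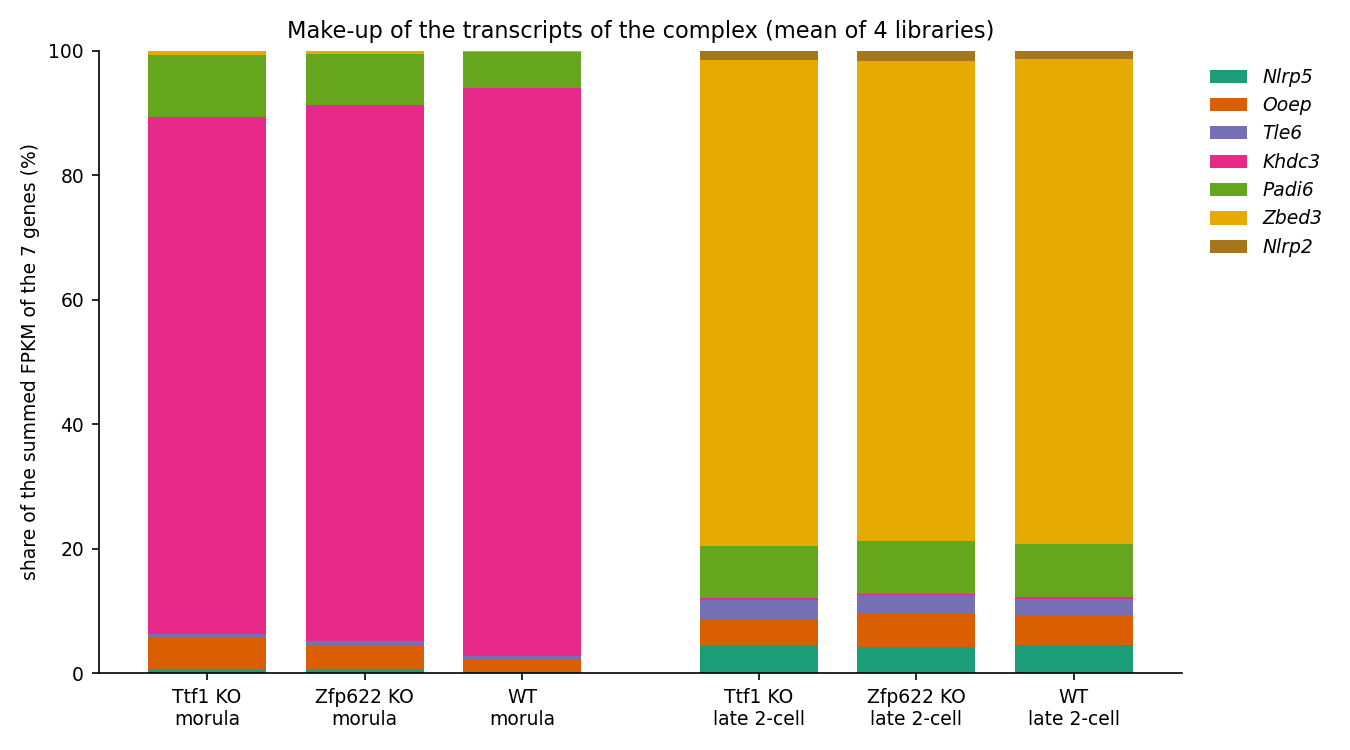
Mean share of each gene in the summed FPKM of the 7 genes (stacked bars, percent, 4 libraries a group) for Ttf1 KO, Zfp622 KO and WT morulae and then the same genotypes at the late 2-cell stage. Khdc3 fills 83.1%, 86.0% and 91.3% of the morula bars, and Zbed3 78.1%, 77.3% and 77.9% of the late 2-cell bars.

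In morulae, both knockouts had more of 3 transcripts that had dropped between the stages, Zbed3, Nlrp5 and Ooep, and less of Khdc3, the 1 member that was higher in WT morulae than in WT late 2-cell embryos. Values here are CPM scaled over the 12 morula libraries, and both knockouts are set against the same 4 WT libraries, so the 2 comparisons are not independent. Khdc3, whose protein binds NLRP5 and is known for a role in genome stability, had 195.5, 209.7, 226 and 236 CPM in Ttf1 KO and 293.5, 238, 266.5 and 212 CPM in Zfp622 KO morulae, against 328, 348, 356 and 366 CPM in WT morulae. All 8 knockout libraries lay below all 4 WT libraries. The log2 fold change over WT was -0.69 ± 0.09 (SE; 1.61-fold lower, adjusted p = 3.03e-05) in Ttf1 KO and -0.47 ± 0.09 (1.38-fold lower, adjusted p = 0.00116) in Zfp622 KO morulae.

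Zbed3 had 1.39, 2.43, 1.75 and 1.57 CPM in Ttf1 KO and 1.42, 1.16, 1.08 and 1.74 CPM in Zfp622 KO morulae, against 0.477, 0.274, 0.792 and 0.626 CPM in WT morulae. These are 22, 34, 26 and 24 reads in Ttf1 KO and 19, 15, 16 and 22 reads in Zfp622 KO libraries, against 7, 4, 14 and 10 reads in WT libraries. The lowest library of either knockout lay above the highest WT library. Snora47, which lies within Zbed3 and shares 0 exon bases with it, had 11 to 38 reads in Ttf1 KO, 1 to 7 in Zfp622 KO and 0 to 4 in WT morula libraries, and its part in the Zbed3 counts was not tested. The log2 fold change was 1.68 ± 0.35 (3.21-fold, adjusted p = 0.00119) in Ttf1 KO and 1.28 ± 0.36 (2.43-fold, adjusted p = 0.0128) in Zfp622 KO morulae.

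Nlrp5 had 3.61, 3.65, 3.57 and 1.89 CPM in Ttf1 KO and 1.87, 2.86, 2.96 and 4.66 CPM in Zfp622 KO morulae, against 1.57, 1.10, 1.30 and 1.32 CPM in WT morulae. The WT libraries lay below every knockout library, the lowest of each knockout being the nearest to them. The log2 fold change was 1.26 ± 0.30 (2.40-fold, adjusted p = 0.00306) in Ttf1 KO and 1.22 ± 0.30 (2.33-fold, adjusted p = 0.00593) in Zfp622 KO morulae. Ooep had 16.2, 14.1, 13.1 and 12.1 CPM in Ttf1 KO and 12.5, 9.34, 14.2 and 13.3 CPM in Zfp622 KO morulae, against 10.1, 7.68, 6.67 and 8.39 CPM in WT morulae. The Ttf1 KO libraries lay above the WT libraries, while 1 Zfp622 KO library fell among them. The log2 fold change of Ooep was 0.76 ± 0.16 (1.69-fold, adjusted p = 0.00147) in Ttf1 KO and 0.59 ± 0.16 (1.51-fold, adjusted p = 0.0114) in Zfp622 KO morulae.

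**Figure D3:**
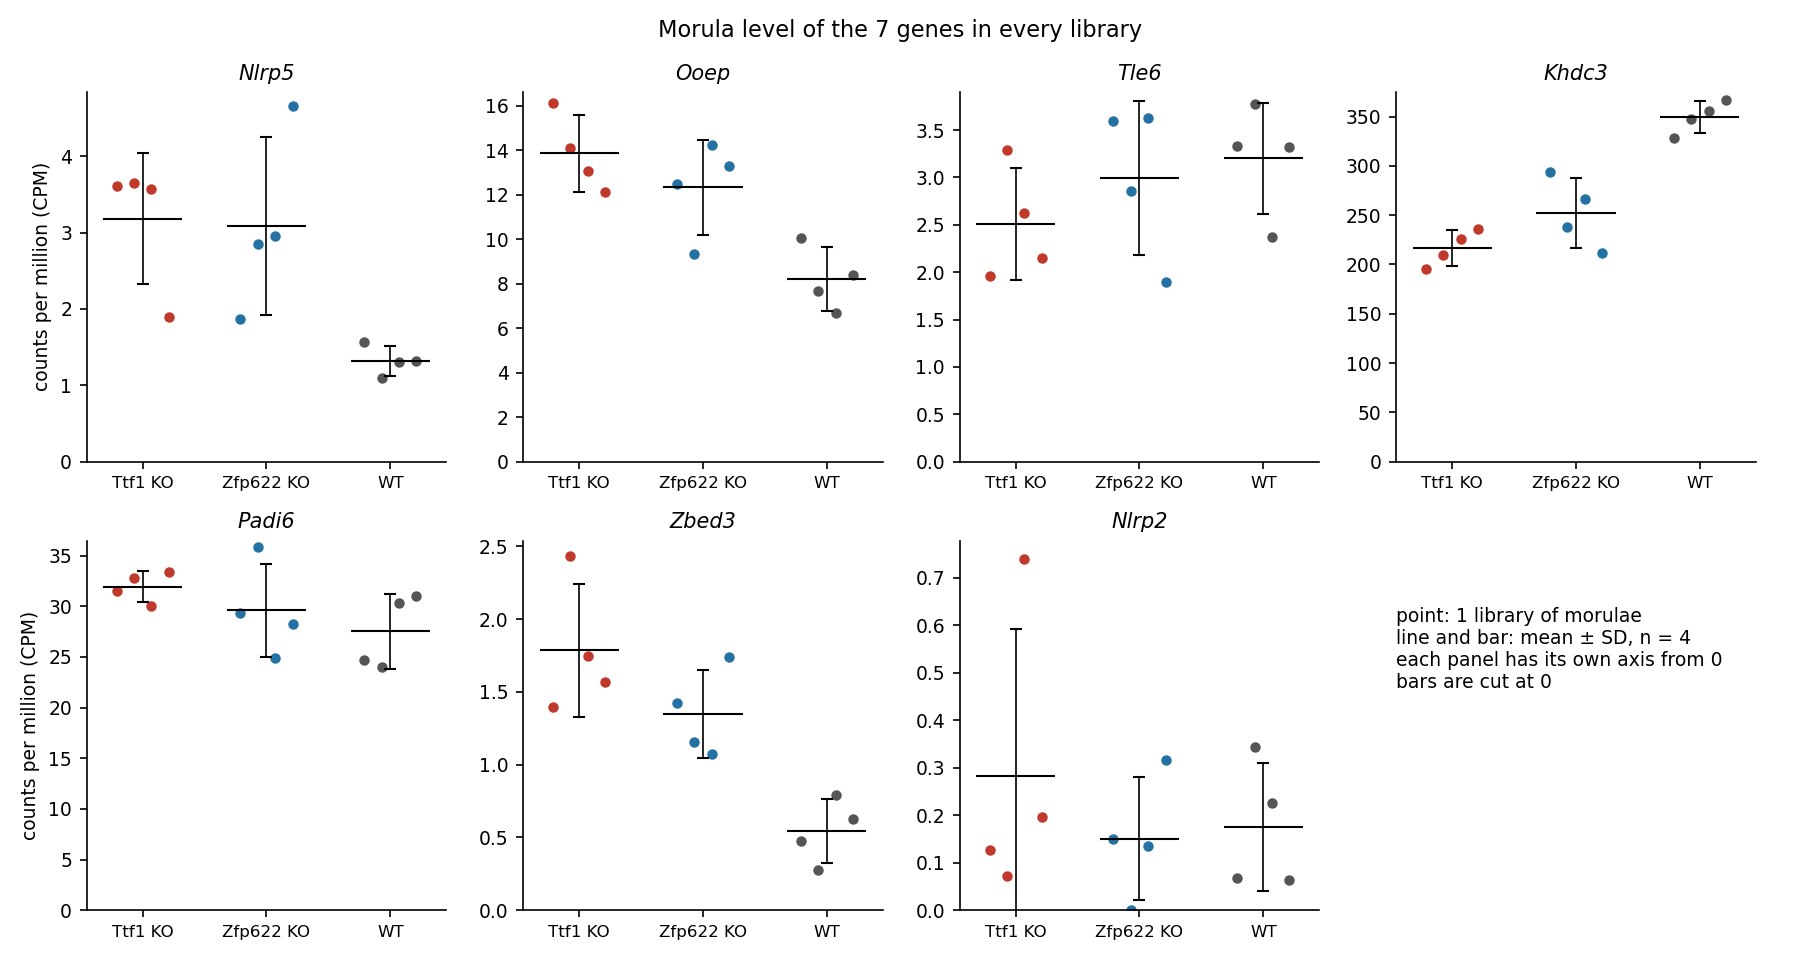
CPM of the 7 genes in the 12 morula libraries (points), with mean ± SD (n = 4) for Ttf1 KO, Zfp622 KO and WT from left to right; each panel has its own axis starting at 0. Khdc3 is lower in every knockout library than in every WT library, and Zbed3 and Nlrp5 are higher in every one.

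The other core gene and the other associated genes did not pass the test in morulae. Tle6 had 1.96, 3.29, 2.62 and 2.15 CPM in Ttf1 KO and 3.59, 2.86, 3.63 and 1.90 CPM in Zfp622 KO morulae, against 3.34, 3.77, 2.38 and 3.32 CPM in WT morulae, with overlap of all groups. Its log2 fold change was -0.35 (95% interval -0.84 to 0.14, adjusted p = 0.287) in Ttf1 KO and -0.09 (-0.58 to 0.40, adjusted p = 0.827) in Zfp622 KO morulae. Padi6 had 31.6, 32.8, 30.01 and 33.4 CPM in Ttf1 KO and 29.3, 35.9, 24.9 and 28.3 CPM in Zfp622 KO morulae, against 24.7, 24, 30.4 and 31.0 CPM in WT morulae, again with overlap. Its log2 fold change was 0.21 (-0.02 to 0.45, adjusted p = 0.167) in Ttf1 KO and 0.10 (-0.13 to 0.34, adjusted p = 0.553) in Zfp622 KO morulae. Nlrp2 was under the filter on low counts, with 2, 1, 11 and 3 reads in Ttf1 KO, 2, 0, 2 and 4 in Zfp622 KO and 1, 5, 4 and 1 in WT libraries, and a difference was not detectable at this depth.

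Of the 6 members that passed the filter on low counts, 4 were thus called in Ttf1 KO morulae, 3 higher and 1 lower, where 39.2% of all genes tested were called (21.3% higher and 17.9% lower). The same numbers held in Zfp622 KO morulae, where 29.1% of all genes tested were called (15.6% higher and 13.5% lower). The median log2 fold change of the 6 was 0.49 in Ttf1 KO, against 0.04 over all genes, and 0.35 in Zfp622 KO, against 0.03 over all genes. Zfp622 KO and WT libraries bear the same lane number, which alone does not show a shared run. The second index number stands in WT libraries only. Without the WT libraries of the second index number, replicates 3 and 4, the count stayed at 4 in Ttf1 KO but was 2 in Zfp622 KO morulae: Khdc3 (-0.43, adjusted p = 0.0290) and Zbed3 (1.81, adjusted p = 0.0216) were called, and Nlrp5 (1.20, adjusted p = 0.0639) and Ooep (0.47, adjusted p = 0.141) were not. Without WT morula replicate 3 alone, Ooep was not called in Zfp622 KO morulae (0.48, adjusted p = 0.0547).

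Stage markers differed along with these genes. Summed oocyte marker levels were 25.6 to 29.0 CPM in Ttf1 KO, 21.1 to 31.6 CPM in Zfp622 KO and 10.4 to 14.8 CPM in WT morulae. In each knockout, 4 of the 6 oocyte markers tested (66.7%) were called higher. Of all genes, 21.3% were called higher in Ttf1 KO and 15.6% in Zfp622 KO. In either direction, 39.2% and 29.1% of all genes were called. Summed late 2-cell marker levels were 31.4 to 89.7 CPM in Ttf1 KO, 48.7 to 54.4 CPM in Zfp622 KO and 12.3 to 36.0 CPM in WT morulae. Of these markers, 3 of 6 (50%) were called higher in Ttf1 KO and 2 of 6 (33.3%) in Zfp622 KO. Both shares are above the 21.3% and 15.6% of all genes called higher, but rest on few markers. Summed morula marker levels were 507 to 703 CPM in Ttf1 KO, 516 to 913 CPM in Zfp622 KO and 1128 to 1221 CPM in WT morulae. Of these markers, 5 of 7 (71.4%) were called lower in Ttf1 KO and 4 of 7 (57.1%) in Zfp622 KO, against 17.9% and 13.5% of all genes. DESeq2 called 2 oocyte markers higher in Zfp622 KO. Without the WT libraries of the second index number, edgeR called 2 oocyte markers higher there, and 3 of the 7 morula markers lower in Ttf1 KO and 0 in Zfp622 KO, where their median was -0.47 on the log2 scale. The part of embryo stage in the differences of the 4 members was not tested. Cumulus cell, sperm and blood markers summed to at most a mean of 6.73 CPM in any morula group. Of these, 1 of 6 sperm markers, Prm2, and 1 of 7 blood markers, Hba-a1, were tested and higher in each knockout. The log2 fold change of Prm2 was 4.84 in Ttf1 KO and 4.99 in Zfp622 KO. Prm2 averaged 0.695 CPM in Ttf1 KO, 0.774 in Zfp622 KO and 0.0171 in WT morulae, so these fold changes rest on few reads. In WT late 2-cell embryos, scaled within that stage, Prm2 averaged 0.490 CPM and Hba-a1 11.7 CPM. Summed blood marker levels averaged 6.73 CPM in Ttf1 KO, 5.68 in Zfp622 KO and 1.62 in WT morulae. Summed over the morula libraries, Has2 of cumulus cells, Tnp1 of spermatids and S100a8 of blood had 0 reads. Other genes of the same lists had reads there, the most in each list being 17 of Tnfaip6, 83 of Prm2 and 802 of Hba-a1.

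**Figure D4:**
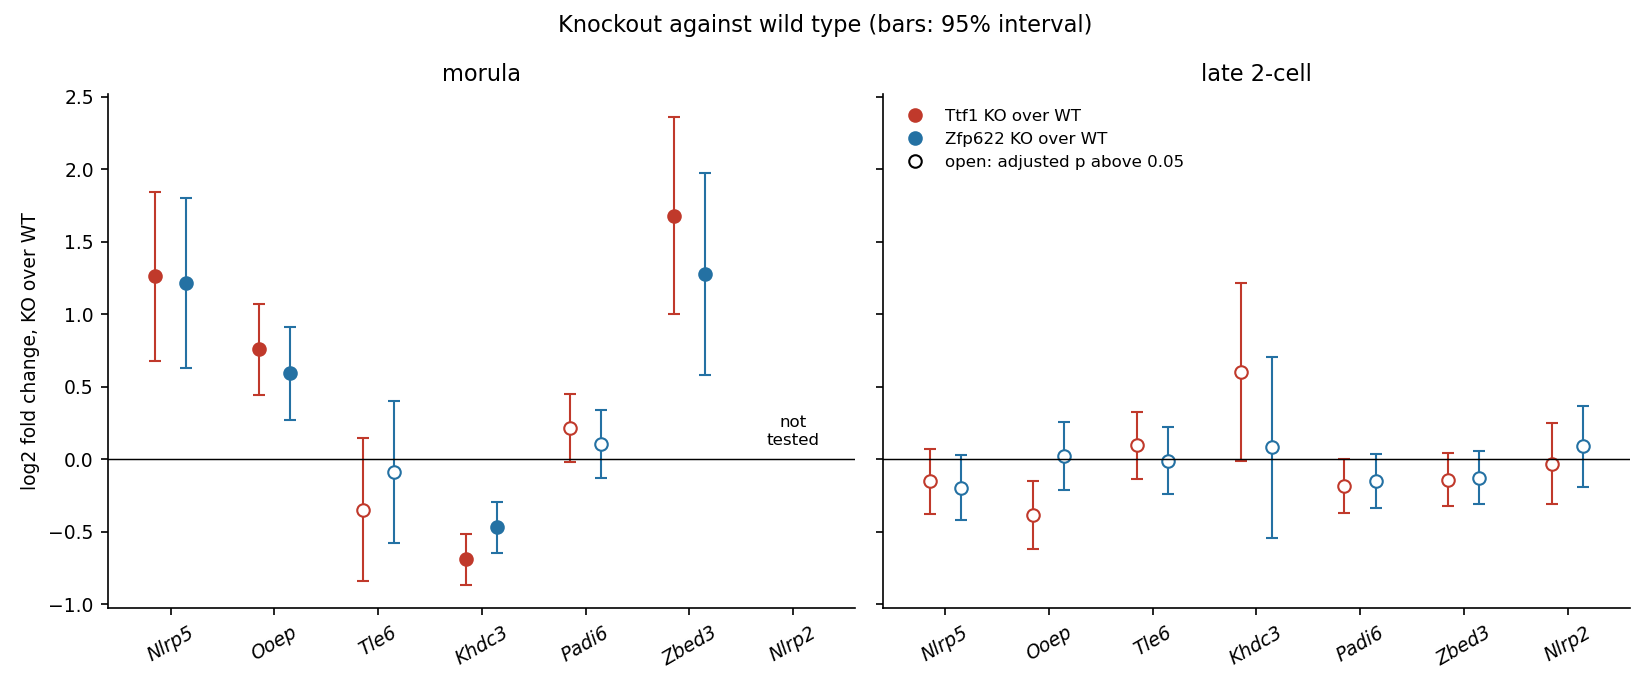
Log2 fold change of each of the 7 genes in Ttf1 KO over WT and Zfp622 KO over WT (points, with 95% intervals), for morulae on the left and late 2-cell embryos on the right; filled points have an adjusted p of at most 0.05. Zbed3, Nlrp5 and Ooep are above 0 and Khdc3 is below 0 in both knockouts at the morula stage, and no point is filled at the late 2-cell stage.

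In late 2-cell embryos, edgeR called 0 of the 7 genes in Ttf1 KO over WT, where 1.54% of all genes tested were called, with 1 gene at an unadjusted p under 0.05 and 1 called by DESeq2. That gene was Ooep, with 31.6, 33.1, 30.8 and 30.3 CPM in Ttf1 KO, against 32.1, 47.8, 40.7 and 43.6 CPM in WT late 2-cell embryos. WT replicate 1 lay within the range of the Ttf1 KO libraries and the other WT libraries above it. The log2 fold change was -0.38 ± 0.12 (95% interval -0.62 to -0.15, adjusted p = 0.110), and without WT replicate 1 it was -0.48 (adjusted p = 0.0425). In Zfp622 KO, Ooep had 42.5, 41.6, 39.9 and 42.8 CPM, inside the WT range. Both tools called 0 of the 7 genes in Zfp622 KO over WT late 2-cell embryos, with 0 at an unadjusted p under 0.05, where 0.0179% of all genes tested were called by edgeR.

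Zbed3, at the late 2-cell stage the most abundant of the 7, had 559.7, 572, 665 and 694 CPM in Ttf1 KO and 684, 707, 520.5 and 601 CPM in Zfp622 KO, against 683, 629, 705 and 728 CPM in WT late 2-cell embryos. The ranges overlapped, and the log2 fold change was -0.14 ± 0.09 in Ttf1 KO and -0.13 ± 0.09 in Zfp622 KO. Khdc3 had 21, 42, 35 and 42 reads in Ttf1 KO and 34, 15, 36 and 23 in Zfp622 KO, against 17, 25, 26 and 22 reads in WT late 2-cell libraries. Its log2 fold change of 0.60 in Ttf1 KO had a 95% interval of -0.01 to 1.22 (adjusted p = 0.357). At so few reads, the interval of Khdc3 was the widest of the 7 at this stage.

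The knockout effects were therefore compared between the stages directly, as the effect at the morula stage minus that at the late 2-cell stage in 1 fit over 24 libraries. For Ttf1 KO this difference was called for 4 of the 7 genes, with 21.2% of all genes called: Zbed3 (1.79 ± 0.28, adjusted p = 4.83e-05), Nlrp5 (1.40 ± 0.29, adjusted p = 0.000826), Ooep (1.13 ± 0.20, adjusted p = 0.000235) and Khdc3 (-1.32 ± 0.25, adjusted p = 0.000348). For Zfp622 KO it was called for 2 of the 7, with 10.7% of all genes called: Zbed3 (1.37 ± 0.30, adjusted p = 0.00323) and Nlrp5 (1.40 ± 0.29, adjusted p = 0.00231). Ooep (0.56, adjusted p = 0.0766) and Khdc3 (-0.57, adjusted p = 0.150) did not pass there. By mean FPKM, Zbed3 was 234-fold lower in morulae than in late 2-cell embryos in Ttf1 KO, 312-fold lower in Zfp622 KO and 837-fold lower in WT. Khdc3 was 105.97-fold higher in Ttf1 KO, 177-fold higher in Zfp622 KO and 261-fold higher in WT morulae than in late 2-cell embryos of the same genotype. Nlrp5 was 16.1-fold lower in Ttf1 KO, 16.2-fold lower in Zfp622 KO and 42.9-fold lower in WT morulae.

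The 2 knockouts were also set against each other. In Ttf1 KO over Zfp622 KO, edgeR and DESeq2 each called 0 members at both stages, with 1 at an unadjusted p under 0.05 at each stage; edgeR called 0.229% of all genes in morulae and 0.0358% in late 2-cell embryos. In morulae that member was Khdc3, at -0.22 ± 0.09 (95% interval -0.40 to -0.04, adjusted p = 0.306). In late 2-cell embryos it was Ooep, at -0.41 ± 0.12 (-0.64 to -0.17, adjusted p = 0.332). The intervals allow differences of these sizes between the knockouts, and all Ttf1 KO libraries bear the other lane number.

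Other genes of the pathway were read from 3 lists of names. Of 7 partners of the complex and of the cytoplasmic lattices, 1 rose and 5 fell in Ttf1 KO morulae, and 1 rose and 4 fell in Zfp622 KO morulae, with list medians of -0.25 and -0.24 on the log2 scale. The called share was 85.7% in Ttf1 KO, against 39.2% of all genes, and 71.4% in Zfp622 KO, against 29.1% of all genes. The 7 partners were Nlrp4f, Nlrp14, Uhrf1, Ube2d3, Dnmt1, Cfl1 and Blm. Ube2d3 and Cfl1 were the most abundant of them, averaging 646 and 640 CPM in WT morulae. Their log2 fold changes were small, at -0.22 and -0.25 in Ttf1 KO. In Zfp622 KO they were -0.24 and -0.12, and Cfl1 was not called there. Nlrp14, an oocyte NLR protein that holds UHRF1 in the cytoplasm, averaged 6.32 CPM in Ttf1 KO, 5.98 in Zfp622 KO and 1.74 in WT morulae (log2 fold change 1.86, adjusted p = 0.0003, in Ttf1 KO and 1.78, adjusted p = 0.000785, in Zfp622 KO). Blm, a DNA helicase, averaged 21.6 CPM in Ttf1 KO, 24.8 in Zfp622 KO and 33.6 in WT morulae (-0.64, adjusted p = 0.00023, and -0.44, adjusted p = 0.00537). Dnmt1, the maintenance DNA methyltransferase, averaged 8.47 CPM in Ttf1 KO, 7.5 in Zfp622 KO and 12.2 in WT morulae (-0.53, adjusted p = 0.00488, and -0.70, adjusted p = 0.00116). Between the stages in WT, 1 partner was higher and 5 were lower in morulae (85.7% called, against 84% of all genes), among them Cfl1 (1.15), Nlrp14 (-5.92) and Nlrp4f (-5.53). In late 2-cell embryos edgeR and DESeq2 each called 0 of the 7 partners in either knockout, with 1 at an unadjusted p under 0.05 in Ttf1 KO and 0 in Zfp622 KO.

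Of 31 relatives by sequence family, 30 were found in the count tables. In morulae 19 were tested, of which 10 rose and 2 fell in Ttf1 KO and 8 rose and 1 fell in Zfp622 KO, with medians of 0.47 and 0.40. The called share was 63.2% in Ttf1 KO and 47.4% in Zfp622 KO, against 39.2% and 29.1% of all genes in the same comparisons. Khdc1c, a KH domain relative of Khdc3 and Ooep, averaged 33.0 CPM in Ttf1 KO, 26.5 in Zfp622 KO and 11 in WT morulae (1.58, adjusted p = 6.55e-06, and 1.27, adjusted p = 8.36e-05). Khdc1b averaged 92.9 CPM in Ttf1 KO, 84.7 in Zfp622 KO and 15.5 in WT morulae (2.59, adjusted p = 5.69e-05, and 2.45, adjusted p = 0.000158). Dppa5a, a more abundant KH domain relative, averaged 2879 CPM in Ttf1 KO, 2961 in Zfp622 KO and 3275 in WT morulae and did not pass the test (-0.19, adjusted p = 0.103, and -0.15, adjusted p = 0.229). Nlrp3, the inflammasome sensor, averaged 2.27 CPM in Ttf1 KO, 1.69 in Zfp622 KO and 0.430 in WT morulae (2.38, adjusted p = 4.50e-05, and 1.96, adjusted p = 0.000491). Members of the Khdc1, Nlrp4 and Nlrp9 families have near-identical copies. The authors' counting left out reads that map to several places, so the values of these families are uncertain and may be too low. Between the stages in WT, 7 of 24 relatives tested were higher and 16 lower in morulae (95.8% called, against 84% of all genes), among them Nlrp9c (-9.17), Nlrp9a (-8.81) and Nlrp4a (-5.77). Scaling by total counts gave 3 higher and 17 lower, and the fold change of 2 called relatives changed sign. In late 2-cell embryos edgeR called 0 of 23 relatives in either knockout, with 5 at an unadjusted p under 0.05 in Ttf1 KO and 4 in Zfp622 KO, and DESeq2 called 1 in Ttf1 KO and 0 in Zfp622 KO.

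Of 20 other maternal effect genes, whose product in the egg serves the embryo, 6 of 19 tested rose and 0 fell in Ttf1 KO morulae, and 5 rose and 1 fell in Zfp622 KO morulae, with medians of 0.36 and 0.25. The called share of 31.6% in each knockout was near that over all genes, 39.2% in Ttf1 KO and 29.1% in Zfp622 KO. Tut4, which adds uridines to RNA tails, averaged 35.6 CPM in Ttf1 KO, 28.3 in Zfp622 KO and 11.2 in WT morulae (1.67, adjusted p = 2.23e-06, and 1.34, adjusted p = 3.45e-05). Dppa3, which guards maternal DNA methylation, averaged 6056 CPM in Ttf1 KO, 6333 in Zfp622 KO and 4389 in WT morulae (0.46, adjusted p = 0.000196, and 0.53, adjusted p = 0.000138). Npm2, the egg nucleoplasmin, averaged 8.66 CPM in Ttf1 KO, 7.56 in Zfp622 KO and 3.40 in WT morulae (1.34, adjusted p = 0.000218, and 1.15, adjusted p = 0.0014). Between the stages in WT, 3 of 20 were higher and 15 lower in morulae (90% called, against 84% of all genes), among them Btg4 (-9.99), H1foo (-6.47) and Tet3 (-5.15); scaling by total counts gave 1 higher and 17 lower, and 1 called gene changed sign. Late 2-cell embryos had 2 lower genes in Ttf1 KO, the oocyte linker histone H1foo (-0.83, adjusted p = 0.00348) and Dppa3 (-0.49, adjusted p = 0.00716), and 1 in Zfp622 KO, H1foo (-0.76, adjusted p = 0.0477). H1foo was not called in Zfp622 KO without WT late 2-cell replicate 4, the library with a second index number. Zp3 stands both in this list and among the oocyte markers. Without the WT morula libraries of the second index number, the Zfp622 KO morula counts were 1 higher and 2 lower partners, 4 higher and 0 lower relatives and 3 higher and 1 lower maternal effect genes; the Ttf1 KO counts were 1 and 3, 10 and 2, and 5 and 0.

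**Figure D5:**
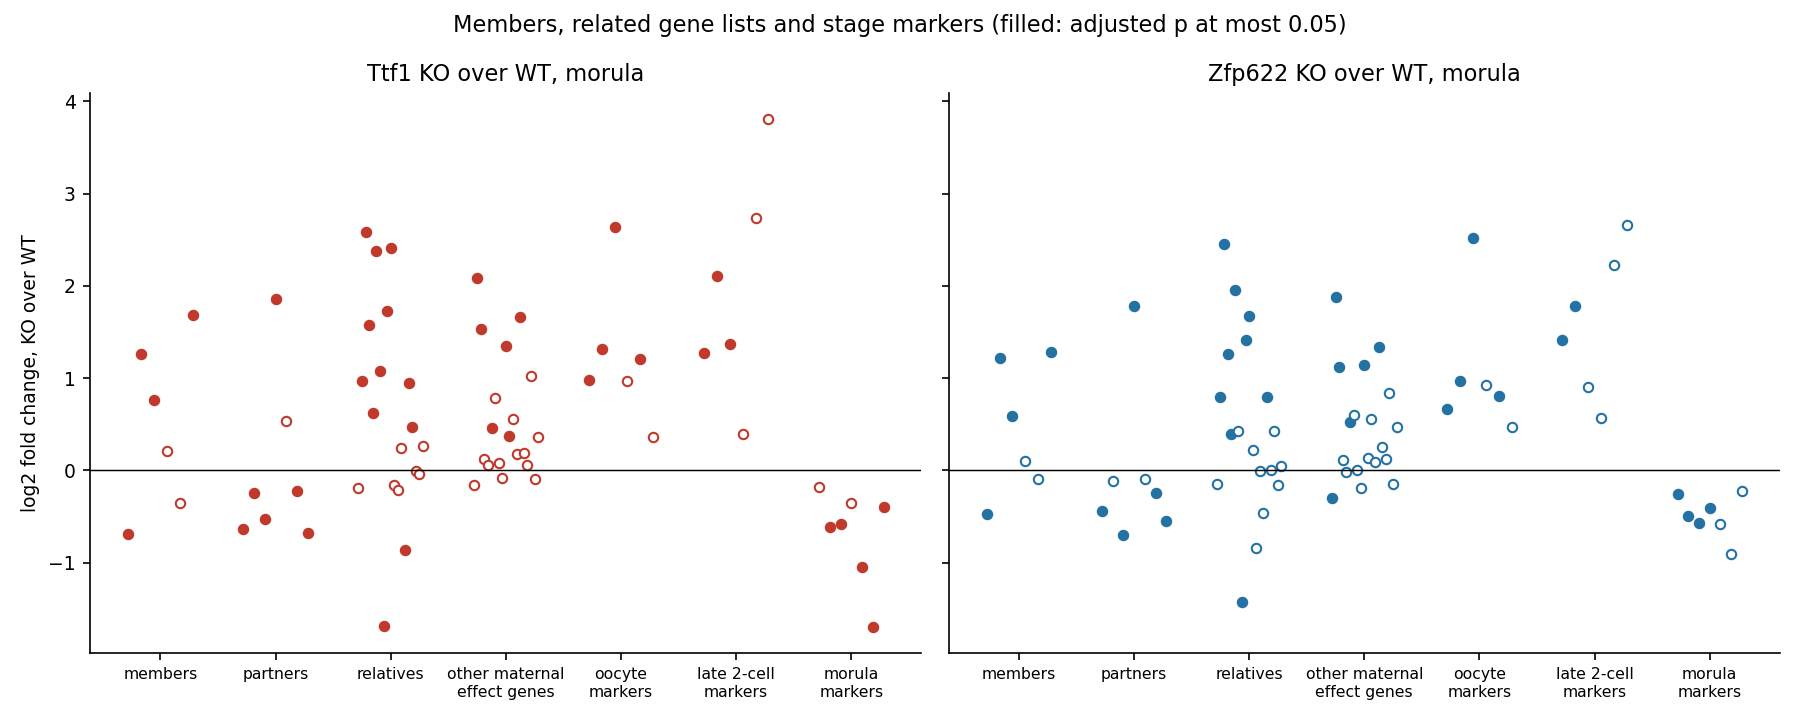
Log2 fold change in Ttf1 KO over WT morulae (left) and Zfp622 KO over WT morulae (right) for the members, their partners, their relatives, other maternal effect genes and 3 sets of stage markers; each point is a gene, and filled points have an adjusted p of at most 0.05. Filled oocyte and late 2-cell markers lie above 0 and filled morula markers below 0.

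Across the 24 libraries, the level of Khdc3 ran against those of the other 6 members, with Pearson's r of log2 CPM between -0.994 and -0.906, while the other pairs of members had r between 0.848 and 0.992. All libraries share the stage difference, which sets most of these values, so they are a description with no test. The 2 genes with the highest r to each member, of 13776 genes, were Rpl3 and Cct7 for Khdc3 (0.998 each), Prickle1 (0.998) and Bmp15 (0.997) for Zbed3, and Fbxw24 (0.998) and Kif5c (0.997) for Nlrp5. For Tle6 they were Snx9 and Ubtd2 (0.990 each), for Nlrp2 Kif14 and Ppfia1 (0.990 each), for Padi6 Iqgap2 (0.965) and Tnip1 (0.964), and for Ooep Prpf38a (0.954) and Znhit6 (0.952). Ranking by Spearman's rho named other genes for every member. In WT, Rpl3, a protein of the large ribosomal subunit, averaged 2683 CPM in morulae and 115 CPM in late 2-cell embryos, the same order as Khdc3. Bmp15, an oocyte growth factor, averaged 2.63 CPM in WT morulae and 457 CPM in WT late 2-cell embryos, the same order as Zbed3.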

How the data were processed

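RNA of mouse embryos was made into cDNA by oligo-dT priming and template switching and sequenced in 150-base read pairs, per the labels' protocols. The deposited values are raw read counts per gene: the authors counted exon reads with featureCounts 2.0.1 over Ensembl release 99 (GRCm38), in paired mode, without a strand option and without reads that map to several places, per the file headers; alignment was with HISAT2 2.2.1, per the submitters' processing notes. Symbols were given to 55144 of 55471 Ensembl IDs. Counts were tested with edgeR 4.0.16 (filterByExpr, TMM scaling, robust quasi-likelihood F test, Benjamini-Hochberg adjustment over all genes tested, called at an adjusted p of at most 0.05) in R 4.3.3, with 12 libraries of a stage in a fit, or all 24 for contrasts across stages. The SE is the size of the log2 fold change over the root of F, and 95% intervals are 1.96 SE to each side. FPKM uses the exon length in the files. Tests were checked on counts simulated from the fitted model with few genes changed. That check does not cover comparisons in which many genes were called.

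Named genes are the 7 members, up to 3 called genes of smallest p in each list and comparison, and for each member the 2 genes of highest Pearson's r of log2 CPM (prior count 2). Other genes were named outside this rule, among them Ttf1, Zfp622, the uncalled Dppa5a, genes that overlap members, and cumulus, sperm and blood markers. The members and lists were chosen with earlier results of these data known. Nothing in the labels says that the libraries of a group came from separate matings, so p-values measure the spread between these pools, which may be technical. Libraries of a group differed by more than sampling noise (chi-square per degree of freedom 6.50 to 24.5). Alternatives were DESeq2 1.42.0, other scalings, no filter, a fit that is not robust, a replicate block, other sets of libraries, and each library left out in turn. The alternatives for the gene lists were chosen after seeing the data. Intervals cover the spread between libraries only, and reads carry no molecular identifiers.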

Additional observations from a re-analysis of the deposited data

Results flagged for a closer look

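In the 42 sets of 4 libraries examined (7 genes in 6 groups), 2 held a library far from the other 3; chance flags about 1 in 20 such sets. Nlrp5 stood at 1.89 CPM in Ttf1 KO morula replicate 4, with a gap to the next library of 0.953 of the group's range, and without this library the log2 fold change over WT was 1.42 (edgeR adjusted p = 0.00118). Padi6 stood at 84.5 CPM in Ttf1 KO late 2-cell replicate 4, with a gap of 0.904 of the range, and without it the log2 fold change over WT was -0.25 (edgeR adjusted p = 0.288).

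The knockout effect differed between morula and late 2-cell stage by edgeR's interaction test in 6 cases. In Ttf1 KO the differences were 1.79 for Zbed3, 1.40 for Nlrp5, 1.13 for Ooep and -1.32 for Khdc3 on the log2 scale. In Zfp622 KO they were 1.37 for Zbed3 and 1.40 for Nlrp5. Zbed3 and Nlrp5 had few reads in all morula libraries, at most 34 and 59, and Khdc3 had at most 42 in any late 2-cell library.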

How the results depend on the processing

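All 7 stage changes, all 4 calls in Ttf1 KO morulae and the 0 calls between the knockouts held in every alternative run. Of 162 counts of members under alternatives, 159 were within 1.5 times of the reported count. In Ttf1 KO late 2-cell embryos 1 member, Ooep, was called by DESeq2 (-0.38, adjusted p = 0.0439), and leaving out 1 library gave counts of 0 to 1. In Zfp622 KO morulae 2 were called without the libraries of a second index number, and 3 to 4 with 1 library left out. A fit with replicate number as a replicate block called 4 members in each knockout at the morula stage, 0 in each at the late 2-cell stage, 7 between stages, and 4 and 2 in the interactions of Ttf1 KO and Zfp622 KO. Same-numbered libraries deviated together with r between -0.198 and 0.104, so no pairing by number was detected. These values cannot show whether same-numbered pools were collected together. The interaction also passed without the second-index libraries for Padi6 in Ttf1 KO (0.57, adjusted p = 0.0368), and in 3 alternatives for Ooep in Zfp622 KO (0.65 to 0.67, adjusted p = 0.0331 to 0.0423) and in 1 for Khdc3 there (-0.75, adjusted p = 0.0485). Signs changed 30 times in 13 results; in none of these was the value past the threshold in either setting. With 1 library left out, log2 fold changes in Zfp622 KO over WT late 2-cell embryos ranged over -0.10 to 0.27 for Khdc3, -0.074 to 0.10 for Ooep and -0.038 to 0.0079 for Tle6 (0.0017 by total counts), and in Ttf1 KO over -0.11 to 0.040 for Nlrp2 (0.0039 without second-index libraries). In Zfp622 KO over WT morulae they ranged over -0.024 to 0.16 for Padi6 and -0.23 to 0.058 for Tle6. In Ttf1 KO over Zfp622 KO they ranged over -0.13 to 0.30 for Nlrp5 in morulae, and in late 2-cell embryos over -0.059 to 0.11 for Nlrp5, -0.10 to 0.013 for Padi6 and -0.10 to 0.041 for Zbed3 (0.0064 by total counts). Interactions of Nlrp2 ranged over -0.35 to 1.15 in Ttf1 KO and -0.91 to 0.13 in Zfp622 KO, and that of Tle6 over -0.21 to 0.069 in Zfp622 KO. The cause was not tested. With no filter on low counts, Nlrp2 in morulae gave 0.64 ± 0.81 (SE) in Ttf1 KO and -0.24 ± 0.89 in Zfp622 KO over WT. Total counts in place of TMM moved 28 of 42 mean FPKM levels by over 1 SD, by factors of 0.802 to 1.235. Depth limits Nlrp2 at the morula stage most, then Zbed3 and Nlrp5 there and Khdc3 at the late 2-cell stage.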
